A study of Homo sapiens with 4 samples.

Results

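The proteasome genes were examined as 1 set in the RNA-seq counts of A549 cells that carried wild type or mutant NFATc2. The members were the rows of the count table whose gene name was PSM, a letter from A to G and a number, except PSMB8 and PSMB9. This name rule found 47 of 64253 rows with 46 different gene names, and it used no measured value. The name was in the count table itself for 45 rows and came from the reference gene table for the other 2, PSMA5 and PSMB2. Of these rows, 44 were among the 17459 genes that passed the filter on low counts and were tested.

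The proteasome is the large ATP-dependent protease that degrades proteins marked with ubiquitin. Its 20S core particle is a barrel of alpha subunits, which form the outer rings and the gate, and beta subunits, which form the inner rings and hold the proteolytic sites. The 19S regulatory particle sits on the ends of the barrel, binds the ubiquitin chain, removes it and unfolds the substrate with a ring of ATPases. Dedicated chaperones assemble both particles, and other activators (PA28 and PA200) can take the place of the 19S particle. The subunits are made together in fixed proportions in most cells, and inhibitors of the core are used against multiple myeloma.

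A549 cells are an established human line of lung adenocarcinoma. They were transiently transfected with a plasmid for NFATc2 (pENTER-NFATc2), a transcription factor that enters the nucleus in response to calcium and calcineurin, or for NFATc2M (pENTER-NFATc2M), in which part of the DNA binding domain is deleted. Both groups were cultured in OPNc-CM, conditioned medium from HEK-293 T cells that secrete isoform c of osteopontin, and each group had 2 libraries. The comparison therefore asks which genes differ between an NFATc2 with an intact and one with a partly deleted DNA binding domain, both overexpressed and both under OPNc; it holds no empty plasmid and no medium without OPNc. The labels do not say that the 2 libraries of a group came from separate cultures, and the p-values cover the spread between the libraries alone, part or all of which may be technical.

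Each library held 21011786 to 23527259 counts in genes. The level of a gene is given as CPM, its counts scaled to a common library size after TMM normalization (counts per 1000000). Of 8 genes known from A549 cells, ALDH1A1 (3280 to 3901 CPM), AKR1B10, AKR1C1, AKR1C2, NQO1, KRT8 and KRT18 were all at or above 332 CPM in every library and EPCAM was at 2.22 to 3.02 CPM. CDKN2A and CDKN2B, which A549 cells have lost, had 0 counts in all 4 libraries, and MTAP next to them had 2 to 7 counts. Of 5 genes expressed in HEK-293 T cells, INA was at 64.9 to 80.3 CPM, NEFL at 6.85 to 8.53 CPM, and NEFM, PAX2 and LIN28B were between 0.416 and 5.47 CPM. Neither marker list held a called gene in edgeR, with 1 of the 8 and 0 of the 5 at an unadjusted p of 0.05 or less and 0 called by DESeq2 or limma voom. With the GC content and length offset described further on, edgeR called KRT18 higher (log2 fold change 0.42, adjusted p = 0.014) and AKR1C1 lower (-0.31, adjusted p = 0.044).

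Regulatory sequence in front of the members was read from RefSeq promoter windows on GRCh38.p14, each of 250 bases before and 50 bases after the gene start, and 40 of the 46 gene names matched a window. Windows were not matched for PSMA7, PSMB1, PSMB6, PSMB7, PSMD4 and PSMG3. The letters searched, on both strands, were GGAAA, the core of the sequence that NFAT proteins bind; TGACNNNGC, the core of the antioxidant response element, which the proteasome gene activator NFE2L1 and its relative NFE2L2 bind; CCAAT; and GGAAGTG, a sequence of the kind bound by ETS factors. A match is a description of the letters and not a binding site.

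Matches to 3 of these motifs are shown with 10 bases on each side. Those to the antioxidant response element core and the ETS-like sequence stand in front of a member that passed the test (PSMD12 and PSMC6) and of members that did not. The NFAT core is shown because the deletion in NFATc2M lies in the domain that binds it. All members shown with the NFAT core did not pass, since no member that passed had it in a matched window. Capitals mark the motif, and each sequence is read 5′ to 3′ on the strand of the gene. The GGAAA and GGAAGTG matches on the opposite strand appear as TTTCC and CACTTCC.
PSMD12 antioxidant response element core, chr17:67366724-67366752, minus strand: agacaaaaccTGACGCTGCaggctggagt
PSMD3 antioxidant response element core, chr17:39980760-39980788, plus strand: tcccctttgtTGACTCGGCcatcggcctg
PSMB3 antioxidant response element core, chr17:38752627-38752655, plus strand: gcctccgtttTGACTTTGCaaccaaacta
PSMG1 antioxidant response element core, chr21:39183616-39183644, minus strand: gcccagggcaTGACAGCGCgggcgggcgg
PSMC6 ETS-like sequence, chr14:52707056-52707082, plus strand: acatagaggtGGAAGTGgagtagaaag
PSMB4 ETS-like sequence, chr1:151399523-151399549, plus strand: actgaaggatCACTTCCgcttccgttg
PSMB4 NFAT core, chr1:151399494-151399518, plus strand: gtcgtctacaGGAAAaagaaagaaa
PSMD3 NFAT core, chr17:39980748-39980772, plus strand: tgtggatttaTTTCCcctttgttga

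The NFAT core was in 24 of the 40 member windows (60%) and in 61.4% of all 27305 promoter windows of the same length. The antioxidant response element core was in 12 member windows (30%) and in 13.6% of all windows. CCAAT was in 18 (45%, against 35.7% of all windows) and the ETS-like sequence in 9 (22.5%, against 11.5%). These shares are given without a test, and the median GC content of the windows was 61.7% for the members and 58.3% for all genes.

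Between NFATc2 and NFATc2M, 5 of the 44 tested proteasome genes passed the test. PSMA4 of the alpha ring, the ATPase PSMC6 and the 19S subunits PSMD1 and PSMD12 were higher with NFATc2, by 1.28 to 1.35 times, and PSMA7 of the alpha ring was lower, at 0.71 times its level with NFATc2M. The other 39 were not called, among them every catalytic subunit, every assembly chaperone and every activator. A gene was called where the edgeR quasi-likelihood test gave a Benjamini-Hochberg adjusted p of 0.05 or less over all tested genes and the log2 fold change between the groups, taken as NFATc2 over NFATc2M, had an absolute value of at least 0.26. Of all tested genes, 8.64% were called, 4.9% higher and 3.73% lower, and of the members 11.4% were called, 9.09% higher and 2.27% lower. With 4 and 1 genes these shares lie near the background. DESeq2 called 5.7% and limma voom 7.98% of all tested genes, and both called the same 5 members.

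The median log2 fold change of the members was 0.03, with 25 values above 0 and 19 below, and that of all tested genes was 0.00061. The values ran from -0.49 for PSMA7 to 0.44 for PSMD12. In 30 of the 44 members the absolute log2 fold change was under 0.26. The median absolute value was 0.14, against 0.23 over all tested genes and 0.18 over the 10122 genes with a mean of at least 10 CPM. At an unadjusted p of 0.05 or less stood 12 members (27.3%, 8 higher and 4 lower) and 23.3% of all tested genes. The CPM of the groups did not overlap in 27 members, 18 with both NFATc2 libraries above and 9 with both below; over all tested genes 53.1% did not overlap, 27.2% above and 26% below. Library size scaling and upper quartile scaling moved the members' median to -0.0012 and -0.0055.

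**Figure D1:**
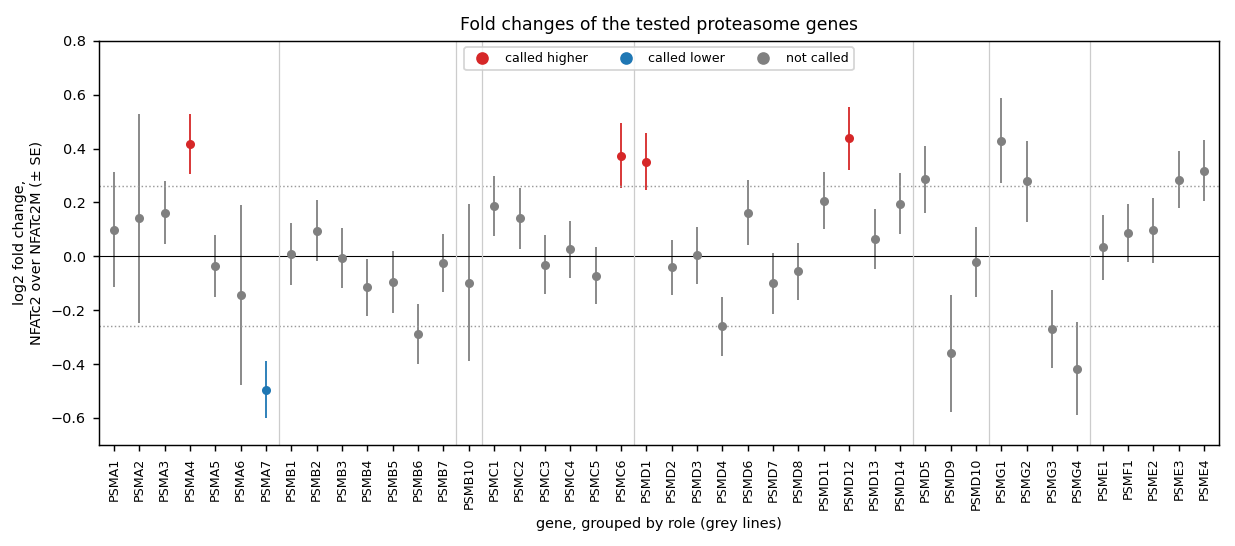
Log2 fold change of NFATc2 over NFATc2M (y axis) with its standard error (bars) for the 44 tested proteasome genes, grouped by role along the x axis; dotted lines mark the fold threshold of 0.26 in each direction. The 4 genes called higher (red) and the 1 called lower (blue) lie in the alpha ring and the 19S particle, and 30 values lie between the dotted lines.

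Added together, the members took nearly the same share of each library. Their counts made up 0.552% and 0.532% of all gene counts with NFATc2 and 0.546% and 0.536% with NFATc2M, so the groups overlapped. The 14 detected subunits of the alpha and beta rings made up 0.151% and 0.136% with NFATc2 and 0.158% and 0.151% with NFATc2M. Both NFATc2 libraries lay below both NFATc2M libraries, and NFATc2 replicate 2 had the lowest share. NFATc2 replicate 1 and NFATc2M replicate 2 differed by less than the last digit given. PSMA7 alone gave 5033 and 4407 of these counts with NFATc2 and 6747 and 5988 with NFATc2M. The share without PSMA7 was not examined. Of the 14 genes, 6 had log2 fold changes above 0 and 8 below. The 17 genes of the 19S particle made up 0.306% and 0.301% with NFATc2 and 0.303% and 0.296% with NFATc2M, and there the groups overlapped. In bulk RNA, fewer cells of a kind and less RNA per cell cannot be told apart, which holds for every level given here.

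The alpha ring held the largest single change and both directions. Its 7 subunits gate the core and are built in before the beta subunits. PSMA7 (ENSG00000101182, chromosome 20, 62136733 to 62143440) had 232.9 and 189.9 CPM with NFATc2 and 318.9 and 276.7 CPM with NFATc2M. Both NFATc2 libraries lay below both NFATc2M libraries. The log2 fold change was -0.49 (standard error 0.11, edgeR adjusted p = 0.00093). It remained negative in all 18 alternative settings. Among these, no fold threshold, an adjusted p of 0.01 and no robust estimation leave the log2 fold change unchanged, so its sign could not turn there. The call was lost without NFATc2 replicate 2 (log2 fold change -0.36) and without NFATc2M replicate 1 (-0.40).

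PSMA4 (ENSG00000041357, chromosome 15, 78540405 to 78552417), another constitutive alpha subunit, had 169.1 and 156.4 CPM with NFATc2 and 109.1 and 134.4 CPM with NFATc2M. The groups did not overlap, and NFATc2M replicate 1 was the lowest library. Its log2 fold change was 0.42 (standard error 0.11, edgeR adjusted p = 0.0077). The edgeR call was lost without NFATc2 replicate 1 (0.36, adjusted p = 0.15), NFATc2 replicate 2 (0.47, adjusted p = 0.071) or NFATc2M replicate 1 (0.27, adjusted p = 0.42). The other tested alpha subunits were not called: PSMA3 lay at 69.7 to 81.8 CPM with a log2 fold change of 0.16, PSMA5 at 83.3 to 87.3 CPM with -0.04, and PSMA1, PSMA2 and PSMA6 at 1.28 to 9.89 CPM with 0.10, 0.14 and -0.14. With the GC content and length offset described further on, PSMA5 was at -0.34 and not called (edgeR adjusted p = 0.060). The median log2 fold change of the ring was 0.10, and with the offset it turned to -0.17. The first is the value of PSMA1 (160 to 216 counts) and the second that of PSMA2 (27 to 59 counts). The values of both genes are uncertain, as described further on. PSMA8, the alpha subunit of the testis, had 0 counts in all 4 libraries, which at 3 counts per library allows 0.129 to 0.142 CPM.

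**Figure D2:**
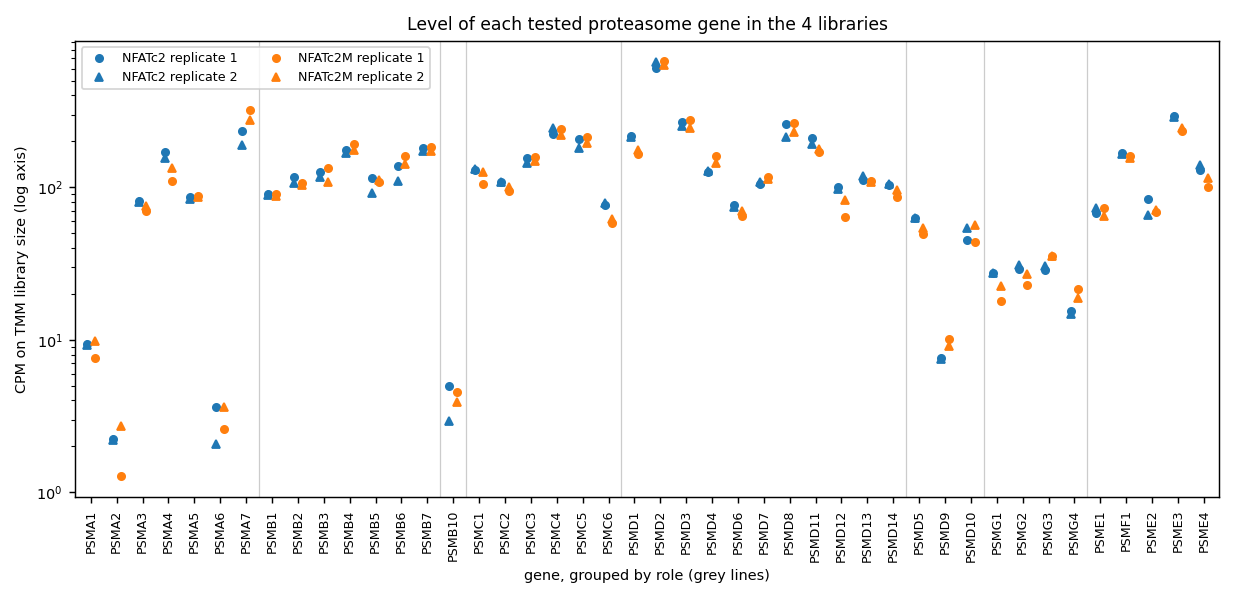
CPM (log axis) of the 44 tested proteasome genes with NFATc2 (blue) and NFATc2M (orange); circles are replicate 1 and triangles replicate 2, and grey lines part the roles. PSMD2 is highest at 605 to 668 CPM, and PSMA1, PSMA2, PSMA6 and PSMB10 lie between 1.28 and 9.89 CPM, below all other ring subunits.

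In the beta ring, none of the 7 subunits was called by edgeR, DESeq2 or limma voom, and 1 had an unadjusted p of 0.05 or less. That subunit was PSMB6, which carries the caspase-like site and had 137.9 and 109.7 CPM with NFATc2 against 159.9 and 142.7 CPM with NFATc2M. Both NFATc2 libraries were lower, and the log2 fold change was -0.29 (standard error 0.11, edgeR adjusted p = 0.086). PSMB5, which carries the chymotrypsin-like site that proteasome inhibitors bind, had 115.1 and 91.2 CPM against 108.9 and 111.5 CPM, with overlapping groups and a log2 fold change of -0.10. PSMB7, which carries the trypsin-like site, had 179.8 and 171.7 CPM against 185.0 and 172.4 CPM and a log2 fold change of -0.02. The structural subunits PSMB1, PSMB2, PSMB3 and PSMB4 had log2 fold changes of 0.01, 0.10, -0.01 and -0.12. The ring's median was -0.02.

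The alternative catalytic subunits were low or undetected. PSMB10, which replaces PSMB7 in the immunoproteasome, had 5.00 and 2.93 CPM with NFATc2 and 4.54 and 3.93 CPM with NFATc2M, with NFATc2 replicate 2 lowest and the groups overlapping (log2 fold change -0.10, standard error 0.29). PSMB11, the catalytic subunit of the thymus, had 1 count in NFATc2M replicate 2 and none in the other 3 libraries. A second identifier of PSMB3 had 0 counts in every library.

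Of the 6 ATPases that unfold the substrate, only PSMC6 was called in the edgeR test (16.7%, against 4.9% of all tested genes called higher). PSMC6 (ENSG00000100519, chromosome 14, 52707178 to 52728590) had 76.0 and 79.1 CPM with NFATc2 and 58.1 and 61.6 CPM with NFATc2M. The replicates lay closer to each other than the groups did, and the log2 fold change was 0.37 (standard error 0.12, edgeR adjusted p = 0.033). It was not called without NFATc2 replicate 1 (0.41, edgeR adjusted p = 0.14), NFATc2 replicate 2 (0.34, edgeR adjusted p = 0.33) or NFATc2M replicate 1 (0.32, edgeR adjusted p = 0.34). PSMC1 and PSMC2 had log2 fold changes of 0.19 and 0.14 with both NFATc2 libraries above, and PSMC3, PSMC4 and PSMC5 had -0.03, 0.03 and -0.07 with overlapping groups. PSMC4 had the highest level per length of the ring and was at 224.0 and 244.9 CPM against 241.0 and 219.6 CPM.

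The 11 other subunits of the 19S particle form its scaffold, its ubiquitin receptors and the lid. Of these, 2 were called higher (18.2%) and none lower, against 4.9% and 3.73% of all tested genes. With the GC content and length offset described further on, none of the 11 was called. PSMD12 (ENSG00000197170, chromosome 17, 67337916 to 67366605), a lid subunit, had 100.4 and 97.3 CPM with NFATc2 and 63.7 and 82.2 CPM with NFATc2M. NFATc2M replicate 1 was lowest, and the groups did not overlap. The log2 fold change was 0.44 (standard error 0.12, edgeR adjusted p = 0.0087), and without NFATc2M replicate 1 it was 0.26 and not called (edgeR adjusted p = 0.45). The call was also lost without NFATc2 replicate 1 (0.42, edgeR adjusted p = 0.11) or NFATc2 replicate 2 (0.45, edgeR adjusted p = 0.11).

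PSMD1 (ENSG00000173692, chromosome 2, 231056845 to 231173116), a large scaffold subunit of the base, had 218.0 and 214.2 CPM with NFATc2 and 164.4 and 174.4 CPM with NFATc2M. Both NFATc2 libraries were higher by more than the replicates differed. Its log2 fold change was 0.35 (standard error 0.11, edgeR adjusted p = 0.022), and the call was lost without NFATc2 replicate 1 (0.34, edgeR adjusted p = 0.16), NFATc2 replicate 2 (0.36, edgeR adjusted p = 0.20) or NFATc2M replicate 1 (0.30, edgeR adjusted p = 0.34). PSMD2, the other large scaffold subunit, was the most abundant member at 604.9 and 660.4 CPM against 668.1 and 633.7 CPM, with overlapping groups and a log2 fold change of -0.04. PSMD4, a ubiquitin receptor, had 126.7 and 127.8 CPM with NFATc2 and 160.8 and 143.7 CPM with NFATc2M, and its log2 fold change of -0.26 did not pass (edgeR adjusted p = 0.13).

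The remaining lid subunits were not called. PSMD14, the deubiquitinase that removes the chain, had a log2 fold change of 0.19 and its partner PSMD7 one of -0.10, and in both the groups did not overlap. PSMD11 and PSMD6 had 0.21 and 0.16 with both NFATc2 libraries above, PSMD13 had 0.06, and PSMD3 and PSMD8 had 0.00 and -0.06 with overlapping groups. The median log2 fold change of the 11 genes was 0.06.

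The assembly chaperones of the core formed 2 pairs that lay on opposite sides. PSMG1 and PSMG2, which act as a dimer in forming the alpha ring, had log2 fold changes of 0.43 and 0.28. PSMG3 and PSMG4, which form the other dimer, had -0.27 and -0.42. PSMG1 was at 27.4 and 27.3 CPM with NFATc2 and 18.0 and 22.7 CPM with NFATc2M, and PSMG4 was at 15.4 and 14.9 CPM against 21.5 and 18.9 CPM. The groups did not overlap in any of these 4 genes, as in 53.1% of all tested genes, and none was called (edgeR adjusted p from 0.072 for PSMG1 to 0.26 for PSMG2; 1 higher and 1 lower at an unadjusted p of 0.05 or less; 0 called by DESeq2 or limma voom). Without NFATc2M replicate 2, PSMG1 was called (0.61, edgeR adjusted p = 0.024), and with the GC content and length offset described further on PSMG3 was at -0.01.

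The 3 chaperones of the 19S base were not called by any of the 3 tools, with 1 at an unadjusted p of 0.05 or less. That gene was PSMD5, with 63.0 and 62.7 CPM against 49.2 and 54.0 CPM (log2 fold change 0.29, edgeR adjusted p = 0.14). PSMD9 had 7.59 and 7.45 CPM with NFATc2 and 10.2 and 9.15 CPM with NFATc2M, with both NFATc2 libraries lower and a log2 fold change of -0.36 (standard error 0.22, edgeR adjusted p = 0.32). PSMD10, known as the oncoprotein gankyrin and the highest of the 3 per length, was at 44.98 and 54.2 CPM against 43.9 and 56.7 CPM, where the replicates differed more than the groups.

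The 4 activator genes and the inhibitor PSMF1 all had log2 fold changes above 0, with a median of 0.10. With all 4 libraries and without an offset or a block, edgeR, DESeq2 and limma voom called none of them. In the edgeR test 2 had an unadjusted p of 0.05 or less. PSME4, which encodes the nuclear activator PA200, came nearest to the threshold with 129.6 and 139.2 CPM against 99.9 and 115.7 CPM (log2 fold change 0.32, standard error 0.11, edgeR adjusted p = 0.056). PSME3, which encodes PA28 gamma of the nucleus, had 295.5 and 286.9 CPM against 234.8 and 243.3 CPM (0.28, standard error 0.10, edgeR adjusted p = 0.069). In both genes the NFATc2 libraries lay above the NFATc2M libraries. PSME1 and PSME2, the interferon-inducible pair that forms PA28 in the cytoplasm, had 0.03 and 0.10 with overlapping groups, and the sign of PSME1 turned with upper quartile scaling. PSMF1, an inhibitor of the core in vitro, was at 169.0 and 166.5 CPM against 160.0 and 156.1 CPM, a log2 fold change of 0.09. PSME4 was called without NFATc2M replicate 2 (0.43, edgeR adjusted p = 0.020) and with a replicate block (0.32, edgeR adjusted p = 0.032). PSME3 was called with a replicate block (0.28, edgeR adjusted p = 0.042) and with the GC content and length offset (0.32, edgeR adjusted p = 0.040).

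GC content moved with these values. Over the 44 tested members, Pearson's r between the log2 fold change and the GC content of the exons was -0.54, and over 17163 tested genes it was -0.46; all points share the same 4 libraries, and genes are not independent replicates. The members' GC content ran from 35.1% to 63.0%. Of the 19 members under 45% GC, 15 had a log2 fold change above 0 and the median was 0.16, and of the 25 others 10 were above 0 with a median of -0.03. The 4 members called higher lay between 37.2% (PSMD12) and 42.6% (PSMA4), and PSMA7 lay at 50.4%.

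Fewer genes were called after an offset for the trend of each library with GC content and length. It left 183 genes higher and 168 lower over all tested genes (2.01% called, 1.05% higher and 0.962% lower) and 2 members. PSMA7 remained lower at -0.43 (edgeR adjusted p = 0.023). PSME3 became called at 0.32 (edgeR adjusted p = 0.040). The 4 members called higher without the offset were no longer called: PSMA4 was at 0.24, PSMD12 at 0.10, PSMD1 at 0.09 and PSMC6 at 0.06, with edgeR adjusted p from 0.17 to 0.81. Members under 45% GC then had a median of -0.07 and the others 0.09, and r was 0.31. The part of GC content in the fold changes was not tested, since a trend that differs between libraries and a difference in genes of low GC content cannot be told apart with 2 libraries a group.

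**Figure D3:**
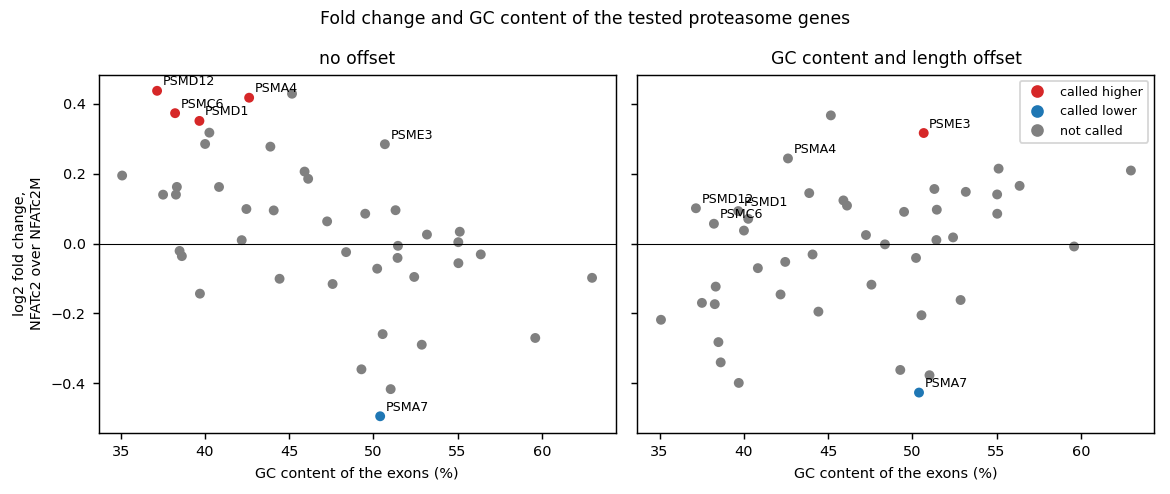
Log2 fold change of NFATc2 over NFATc2M (y axes) against the GC content of the exons (x axes, percent) for the 44 tested members, without (left) and with (right) the offset for GC content and length; red marks genes called higher and blue genes called lower. Without the offset r was -0.54 and the 4 genes called higher lie at or below 42.6% GC; with it r was 0.31 and the calls are PSME3 (higher) and PSMA7 (lower).

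Levels were compared between members as mean CPM over the 4 libraries per kb of exon. On the union of all annotated exons, the highest levels per kb were those of PSMA7 (145), PSMD2 (129), PSMB3 (103), PSMB7 (99.1), PSMB6 (95.1) and PSMC4 (91.1). The ranges over the 4 libraries overlapped between PSMA7 (108 to 182) and PSMD2 (122 to 135) and between PSMB3 (93.1 to 114) and PSMB7 (96.0 to 104). The median was 83.7 in the beta ring, 33.3 in the ATPase ring, 26.6 in the other 19S subunits, 20.1 in the activators and inhibitor, 15.0 in the alpha ring, 13.0 in the chaperones of the 19S particle and 6.64 in those of the core. On the MANE Select transcript the order was different, with 158.6 in the beta ring, 72.1 in the activators and inhibitor, 68.1 in the ATPase ring, 67.7 in the other 19S subunits, 22.6 in the chaperones of the core, 22.5 in the alpha ring and 16.9 in the chaperones of the 19S particle. Both medians of the alpha ring include PSMA1, PSMA2 and PSMA6, whose levels are uncertain, as described in the next paragraphs. The other tested alpha subunits, PSMA3, PSMA4, PSMA5 and PSMA7, had 24.7, 20.3, 15.0 and 145 on the union of exons. On MANE Select they had 80.4, 32.5, 22.5 and 264.6. Over all tested members the median was 20.6 CPM per kb. It was 33.2 on the longest annotated transcript and 55.2 on the MANE Select transcript, the latter a length chosen after the data were seen. The leading gene changed with the length in 4 roles: on MANE Select it was PSMB4 in the beta ring, PSMC5 among the ATPases, PSMG2 among the chaperones of the core and PSME2 among the activators.

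The constitutive subunits of the core enter the barrel in equal numbers, but the counts of PSMA1, PSMA2 and PSMA6, and of the alternative subunit PSMB10, were far below those of the other ring subunits. PSMA2 had 27 to 59 counts in the 4 libraries, PSMA6 had 48 to 79, PSMB10 had 68 to 108 and PSMA1 had 160 to 216, against 1474 to 6747 counts for PSMA3, PSMA4, PSMA5 and PSMA7. These same genes share exons on the same strand with an annotated readthrough gene, a transcript that runs on into or from a neighbour. The shared part was 100% of the MANE Select transcript in PSMA2, 81.4% in PSMA6, 67.0% in PSMA1 and 56.1% in PSMB10. In PSMD9, with 164 to 215 counts, it was 28.8%. No other tested member shared exonic bases of its MANE Select transcript with another gene on the same strand. The readthrough genes over PSMA1, PSMA2, PSMA6 and PSMD9 had 0 or 1 count in a library, and the one over PSMB10 had 21 to 38.

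HTSeq in its default mode leaves a read that overlaps exons of more than 1 gene in an ambiguous class, which held 1.55% to 1.69% of each library's total here. The mode and the strand setting the authors used are not given in the sources used here, so the part of read sharing in these low levels was not tested, and the levels and fold changes of these 5 genes are uncertain. Without them, 4 of the remaining 39 members were called higher and 1 lower, with a median log2 fold change of 0.03. PSMC1, PSMD7 and PSMC5, which stay among the 39, overlap a gene on the opposite strand over 83.2%, 51.6% and 13.7% of the MANE Select transcript. NRDE2 over PSMC1 had 1981 to 2543 counts, against 2221 to 3064 for PSMC1. A long noncoding RNA gene over PSMD7 had 1253 to 1383, against 2282 to 2499 for PSMD7. FTSJ3 over PSMC5 had 3919 to 4279, against 4191 to 4501 for PSMC5. Read sharing with these genes was not tested, so the values of PSMC1, PSMD7 and PSMC5 are uncertain too.

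**Figure D4:**
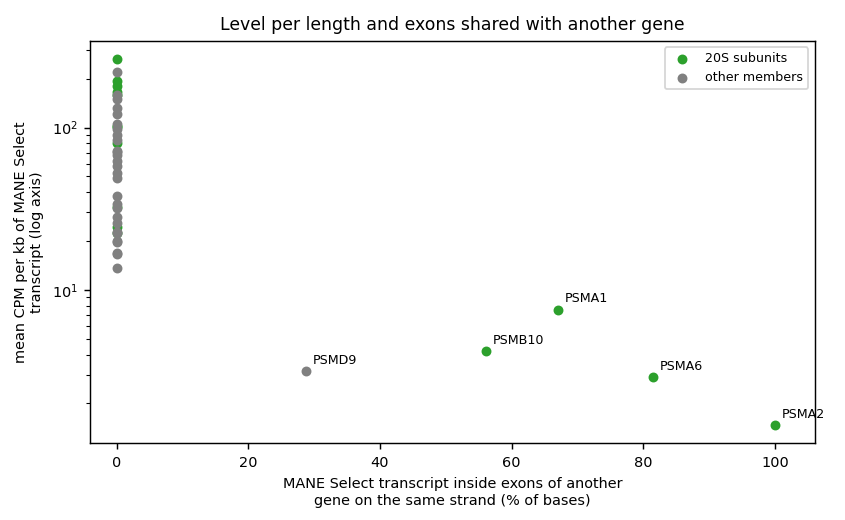
Mean CPM per kb of the MANE Select transcript (y axis, log) against the share of its bases that lie in exons of another gene on the same strand (x axis, percent) for the 44 tested members; green points are 20S subunits. PSMD9, PSMB10, PSMA1, PSMA6 and PSMA2 lie at 28.8% to 100% and between 1.47 and 7.56 CPM per kb, below all 39 members at 0%.

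Processed pseudogenes, copies of a spliced transcript elsewhere in the genome, are a further place where reads of these genes can fall. The table held 44 rows named as pseudogenes of a member, of which 25 had no count and 19 had at least 1. Their counts summed to 111 and 115 with NFATc2 and to 142 and 138 with NFATc2M, with PSMC1P1 highest at 78 in 1 library. Reads that a pseudogene and its parent share were not examined.

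The motifs in the promoter windows differed among the members called higher. None of these 4 members had the NFAT core in its window, and 23 of the 34 matched members that were not called had it. Of all promoter windows, 61.4% had the NFAT core. PSMA7, the member called lower, had no matched window. Whether any of these motifs goes with the calls was not tested. PSMD12 (165 bases before the start) and PSMD1 (after the start) had the antioxidant response element core, as did 10 of the 34 not called, among them PSMD3, PSMB3 and PSMG1 shown above. PSMC6 had the ETS-like sequence 134 bases before its start, as 8 of the 34 did elsewhere in their windows. PSMA4 had none of the 4 motifs in its window.

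Genes that work beside the subunits were read from lists of the same pathway. These lists were chosen with earlier results of these data known, so their shares are a description only. Their counts stand beside 4.9% of all tested genes called higher, 3.73% called lower and 23.3% at an unadjusted p of 0.05 or less. Of 13 other proteasome proteins, 4 were called higher (30.8%) and none lower, with a median log2 fold change of 0.20 and 6 higher and 1 lower at an unadjusted p of 0.05 or less. They were POMP (0.52, edgeR adjusted p = 0.0036), the maturation factor of the core, USP14 (0.38, edgeR adjusted p = 0.024), a deubiquitinase of the 19S particle, TXNL1 (0.43, edgeR adjusted p = 0.028), a thioredoxin that binds it, and UBLCP1 (0.54, edgeR adjusted p = 0.013), a phosphatase that acts on it. POMP had 94.5 and 70.4 CPM with NFATc2 and 51.3 and 63.4 CPM with NFATc2M. With the GC content and length offset none of the 13 was called by edgeR and the median was 0.07.

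Of 6 regulators of proteasome genes none was called by edgeR, DESeq2 or limma voom, and none had an unadjusted p of 0.05 or less. NFE2L1, the activator that restores proteasome genes when the protease is inhibited, had 357.5 and 357.3 CPM against 398.5 and 383.0 CPM and a log2 fold change of -0.13. HSF1, the heat shock factor, had 147.3 and 138.6 CPM against 156.7 and 139.5 CPM and a log2 fold change of -0.05. Among 11 ubiquitin genes, E1 enzymes and shuttle factors, UBA6, a second E1 enzyme (0.52, edgeR adjusted p = 0.0026), and RAD23B, a shuttle that carries ubiquitylated proteins to the proteasome (0.31, edgeR adjusted p = 0.047), were called higher and none lower. Of these 11 genes, 4 were higher and 0 lower at an unadjusted edgeR p of 0.05 or less. With the offset the calls of UBA6 and RAD23B were lost, at 0.12 for UBA6 (edgeR adjusted p = 0.58) and 0.17 for RAD23B (edgeR adjusted p = 0.27). Of 9 genes of the p97 segregase and its cofactors, FAF1 was called higher (0.39, edgeR adjusted p = 0.046). Neither DESeq2, limma voom nor edgeR with the offset (0.29, adjusted p = 0.17) called it. Of these 9 genes, 3 were higher and 0 lower at an unadjusted edgeR p of 0.05 or less.

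Among the complexes most like the proteasome, the COP9 signalosome, whose subunits are related to the 19S lid, had 1 of 10 genes called higher, COPS2 (0.61, edgeR adjusted p = 0.0014), with a list median of -0.03. The chaperonin CCT, a barrel that folds actin and tubulin, had 1 of 8 called higher, CCT8 (0.36, edgeR adjusted p = 0.019), with a list median of 0.18. Neither had a gene called lower, and with the GC content and length offset neither had a call in edgeR and the medians were 0.09 for COP9 and 0.03 for CCT. Of the 9 genes called in the 5 lists with a call, edgeR called 3 without NFATc2 replicate 1 (CCT8, COPS2 and UBA6), 2 without NFATc2 replicate 2 (COPS2 and POMP), 0 without NFATc2M replicate 1 and 8, all but RAD23B, without NFATc2M replicate 2. The difference between these lists and the proteasome was not tested.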

How the data were processed

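RNA-seq of A549 cells was read from 4 libraries, 2 with NFATc2 and 2 with NFATc2M, grouped by their labels. Reads were aligned by the authors with HISAT2 to GRCh38, handled with SAMtools 1.18 and counted with HTSeq 0.11.2 on the genes of Ensembl release 94; no HISAT2 version is given in the sources used here. What they deposited are raw counts, whole numbers for each gene. The table also holds 4 value columns without sample names, with the same counts and the groups in the opposite order; they were not used, so the direction of every difference rests on the column names. The 5 HTSeq summary classes took 56.4% to 57.4% of a library and were not used. Among them, reads assigned to no gene feature made up 44.0% to 44.6%. Depth sets the precision, and floors of 3 counts cover counting error only.

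Counts were filtered with filterByExpr, scaled by TMM and tested over all genes with the quasi-likelihood test of edgeR 4.0.16 in R 4.3.3 (robust, no block, 2 residual degrees of freedom). Exon lengths, GC content and overlaps came from GENCODE 44 on GRCh38, with overlapping genes limited to those in the count table. Alternatives were DESeq2 1.42.0, limma 3.58.1 with voom, other scalings, filters and thresholds, a replicate block, an offset for GC content and length (a spline with 5 degrees of freedom) and each library left out. The fit was also run on simulated counts drawn without a GC trend between libraries. That run therefore says nothing on calls that move with the GC content and length offset. Named genes were every called member, the highest per length and the largest absolute log2 fold change in each role, members nearest to the threshold, and up to 4 called genes of each other list (with none called, 2 of the highest counts); other members were given for completeness. The members and lists were chosen with earlier results of these data known. Python 3.11.15 and matplotlib 3.10.9 drew the figures.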

Additional observations from a re-analysis of the deposited data

How the results depend on the processing

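Calls at this depth rest on 2 libraries a group, and no call for a proteasome gene held in all settings. Without 1 library, 0 to 6 members were called higher (6 without NFATc2M replicate 2, 0 without any 1 of the others), and 0 to 1 lower (0 without NFATc2 replicate 2 or NFATc2M replicate 1); over all genes, 9 to 1273 were called higher and 64 to 690 lower, both lowest without NFATc2M replicate 1, and the members' median ran from 0.056 to 0.081. In those fits the lone library of a group is assumed to vary like the other group. The offset for GC content and length gave 1 member called higher, and 183 genes higher and 168 lower over all genes; together with the replicate block it gave 1, 153 and 160. Upper quartile scaling gave 2 members higher, 2 lower (PSMA7 and PSMB6) and a median of -0.0055, and library size scaling 556 genes higher and a median of -0.0012. DESeq2 called 562 genes higher and 433 lower, and called the same 5 members, as did limma voom. An adjusted p of 0.01 gave 2 members higher, and 321 genes higher and 270 lower. The median level per kb was 33.2 on the longest transcript and 55.2 on MANE Select. The last of these, and the counts without the 5 genes under a readthrough gene, were chosen after the data were seen. Of 792 values of members under the alternatives, 64 had the opposite sign to the reported one, in 22 of the 39 uncalled members. No called value changed sign. The 792 include the settings with no fold threshold, an adjusted p of 0.01 or no robust estimation. Those settings leave the log2 fold change unchanged, so no sign could turn in them. The cause of the differences between settings was not tested.

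The replicate numbers of the 2 groups are only numbers in the labels: the differences between replicates 1 and 2 had a correlation of 0.041 between the groups over 17459 genes. With the replicate block, edgeR called 6 members higher (PSME3 and PSME4 added) and 2 lower (PSMB6 added), and 1022 genes higher and 737 lower over all genes.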
